A study of Mus musculus with 5 samples.

Results

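The Slc2a genes encode the facilitative sugar transporters of the GLUT family, and 10 of them were read in RNA from mouse colorectal cancer (CRC) tumours. The members were the entries of the count table whose symbol is Slc2a1, Slc2a2, Slc2a3, Slc2a4, Slc2a5, Slc2a6, Slc2a8, Slc2a9, Slc2a10 or Slc2a12, and all 10 were found among 54113 named entries. MC38 cells, a colon carcinoma line from C57BL/6 mice, were implanted into C57BL/6 mice. By the methods of the study the mice were first kept at an intermediate cool temperature, then moved to 30 °C, a thermoneutral temperature for mice, or to 4 °C, and then given the tumour cells. The labels give an exposure of 2 weeks for both groups. RNA of whole tumour tissue was sequenced in 3 samples from 30 °C and 2 samples from 4 °C, which the study calls biological samples. All samples share the strain and the tumour type, no other allele or agent is given in the labels, and neither ages nor a batch are given for the individual samples. Named genes received 16191708 to 20320525 counts in each library, so that a count of 3, taken as the floor, equals 0.148 to 0.185 CPM (counts divided by the total of the library and multiplied by 1e+06).

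GLUT proteins carry sugars across membranes down their concentration gradient, without energy of their own. They fall into a class of classical glucose carriers (GLUT1, GLUT2, GLUT3 and GLUT4), a class that includes the fructose carrier GLUT5, GLUT7 and the urate carrier GLUT9, and a class that includes the largely intracellular GLUT6 and GLUT8 together with GLUT10 and GLUT12. Cancer cells take up glucose mainly through GLUT1 and GLUT3, and the question behind the comparison was whether tumours of cold-exposed mice differ in how they handle glucose.

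The tissue was first read from marker genes. The 14 epithelial markers, of which 8 were above the floor in every library and Cdx1 had 0 counts throughout, summed to between 22.9 and 186.5 TMM-scaled CPM (CPM after correction for composition). By contrast, 13 B cell markers summed to between 13062 and 19004 and 11 erythroid markers to between 14348 and 42657. Pancreatic acinar genes took 28.1% of the counts of 30 °C replicate 2 and at most 0.273% of the counts of any other library. Markers of splenic stroma, 9 genes that include the spleen factor Tlx1 and the vascular addressin gene Madcam1, summed to between 243 and 505 and thus to more than the epithelial markers in every library, although these sums are not corrected for gene length. Tlx1 itself had between 173 and 563 counts. The highest epithelial sum was in 30 °C replicate 2, the library rich in acinar RNA. The libraries are labelled as carcinoma, and their markers show RNA of blood, lymphoid cells and splenic stroma. How much of the RNA came from carcinoma cells was not tested, and the samples are called tumours below after their labels. In such mixed tissue fewer cells of a type and less RNA per cell cannot be told apart. All values of members below are TMM-scaled CPM unless another scale is named. The fold changes of Slc2a1, Slc2a3, Slc2a4, Slc2a6 and Slc2a10 are also given without 30 °C replicate 2.

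The transporters were not equally abundant. Per kilobase of exon, the only scale on which the levels of different genes can be set side by side, Slc2a1 had a median over the 5 libraries of 12.8 CPM per kb (7.80 to 16.2). Slc2a3 followed with 9.14 (5.97 to 11.6), and their ranges overlapped. Slc2a6 had a median of 3.40 (2.40 to 6.25), Slc2a8 of 2.99 (2.26 to 3.25) and Slc2a4 of 2.19 (1.24 to 4.84), and none of these neighbours was separated from the next by its spread. Slc2a9 came next with 1.56 CPM per kb (1.31 to 1.75). A clear gap followed, since Slc2a10 reached at most 0.368 CPM per kb in any library. Slc2a12, Slc2a2 and Slc2a5 had medians of 0.0126, 0.00759 and 0 CPM per kb, values that rest on counts at or near the floor. With the length of the longest transcript in place of all exons the order of the medians was the same.

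The share of each member in this pool was computed for every library. Summed over the 10 members, the level was 39.4, 30.0 and 30.0 CPM per kb at 30 °C and 31.2 and 33.5 at 4 °C, so the groups overlapped. Without division by length, the sum was 181.2, 142.5 and 140.3 CPM at 30 °C and 138.5 and 139.5 at 4 °C, narrowly without an overlap. Slc2a1 made up 32.4%, 26.0% and 35.8% of the sum per kb at 30 °C and 48.1% and 48.3% at 4 °C. For Slc2a3 the shares were 29.5%, 32.5% and 30.4% at 30 °C and 24.3% and 17.8% at 4 °C. Both tumours at 4 °C thus lay above all 3 at 30 °C in the share of Slc2a1 and below them in the share of Slc2a3. Shares of the same sum depend on each other, and these rest on the same Slc2a1 and Slc2a3 values as the comparisons below. A background for such shares was not computed. Slc2a4 contributed 9.18%, 16.1% and 6.40% at 30 °C against 3.99% and 6.53% at 4 °C, with an overlap through 30 °C replicate 3.

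**Figure D1:**
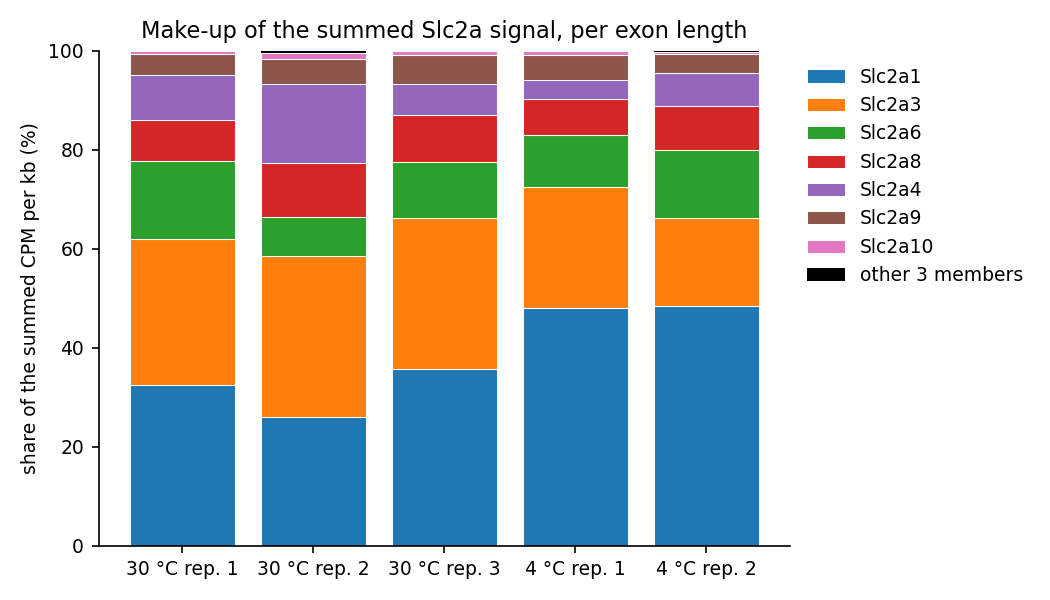
Each bar is 1 library and shows the share (%, from 0 to 100) of every Slc2a member in the summed CPM per kb of the 10 members. The Slc2a1 segment takes 48.1% and 48.3% in the 2 libraries at 4 °C and between 26.0% and 35.8% in the 3 libraries at 30 °C.

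Of the 10 members, 7 passed the filter on low counts and were tested with the quasi-likelihood test of edgeR. None of the 7 had a Benjamini-Hochberg adjusted p under 0.05, and over all 16133 genes tested 0 (0%) did. At an unadjusted p under 0.05 there were 2 members, Slc2a1, which was higher at 4 °C, and Slc2a3, which was lower, against 6.76% of all genes tested. Without 30 °C replicate 2 there were 0 such members, and 3.24% of all genes. The groups did not overlap for the same pair. Over all genes, 12.2% had both tumours at 4 °C above all at 30 °C and 11.0% had both below. By sign alone 6 of the 7 members were lower at 4 °C, while 49.3% of all genes tested were, and the median log2 fold change of the 7 was −0.23 against 0.006 over all genes. The sign of Slc2a6 flipped with upper-quartile scaling, which left 5 members lower. The DESeq2 Wald test called 118 genes and none of the members, although 3 members had an unadjusted p under 0.05 with it, as had 7.80% of all genes tested.

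**Figure D2:**
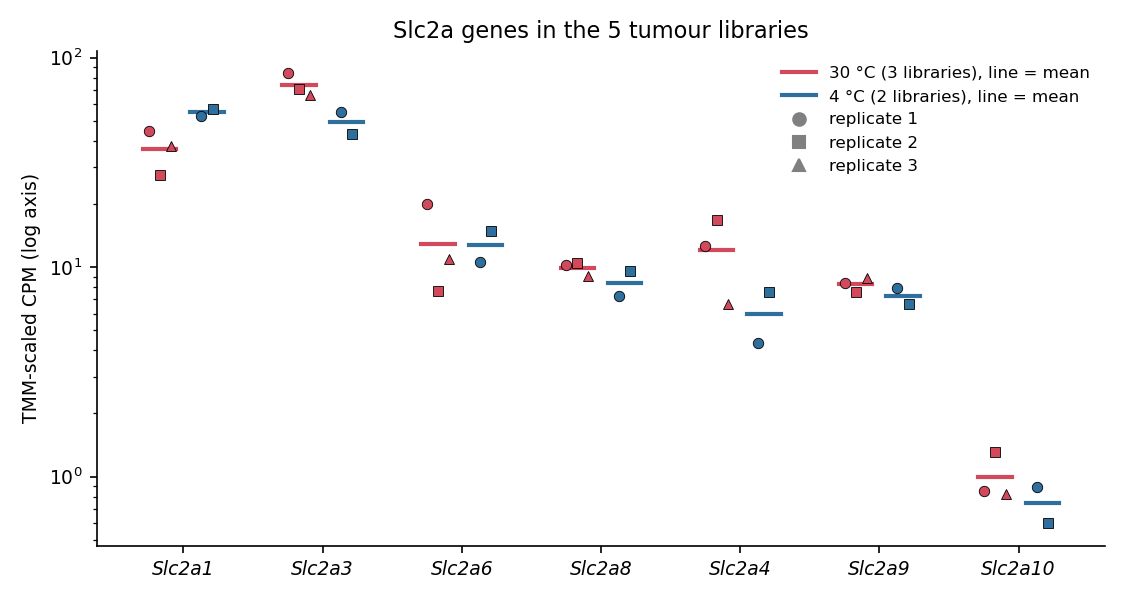
TMM-scaled CPM (log axis) of the 7 tested Slc2a members, 1 point per library, with the replicate given by the symbol and the group mean by a line. The groups are apart for Slc2a1, where both libraries at 4 °C lie above the 3 at 30 °C, and for Slc2a3, where both lie below.

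Slc2a1 encodes GLUT1, the basal glucose transporter of most dividing cells. The gene (ENSMUSG00000028645.11) lies on chromosome 4 of GRCm38 from 119108711 to 119137983 on the plus strand. It had 841, 333 and 862 counts at 30 °C and 1058 and 947 at 4 °C, which is 44.8, 27.4 and 37.6 CPM against 52.6 and 56.7. Both tumours at 4 °C were above the highest tumour at 30 °C, and the lowest value was that of 30 °C replicate 2. At 30 °C the mean was 36.6 ± 8.75 CPM (SD, n = 3), while at 4 °C it was 54.7 ± 2.91 (SD, n = 2). On the log2 scale this is a difference of 0.58 (standard error 0.24, 95% interval 0.008 to 1.15). It did not pass the test over all genes (edgeR, unadjusted p = 0.0476, adjusted p = 0.731). Without 30 °C replicate 2 the log2 fold change was 0.40 (unadjusted p = 0.129), and without 30 °C replicate 1 it was 0.75 (unadjusted p = 0.0175). An antisense gene, Gm12868, shares 105 exon bases with Slc2a1 and had at most 2 counts in a library.

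The study also measured GLUT transcripts by quantitative PCR, and its primer pairs for Slc2a1, Slc2a4 and Slc2a7 are shown because they mark the stretch of each transcript that such an assay reads, whereas the counts above cover all exons of a gene. The sequences come from the primer list of the study, were matched exactly to GENCODE M21 transcripts and are written 5′ to 3′:
Glut1 forward: caatggcggcggtcctataa
Glut1 reverse: aacggacgcgctgtaactat
Glut4 forward: acactggtcctagctgtattct
Glut4 reverse: ccagccacgttgcattgta
Glut7 forward: cacgcactttgagcgacac
Glut7 reverse: cccacttattgaccatcaggc

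Both Glut1 primers lie in exon 1 of Slc2a1-201, at chr4:119108758-119108777 and chr4:119108888-119108907 of GRCm38, in the 5′ untranslated part. Their product has 150 bases and crosses no intron. The forward primer matched 1 of the 5 annotated Slc2a1 transcripts and the reverse primer 4 of them. The Glut4 primers lie in coding sequence of exons 2 and 3 of Slc2a4-201, at chr11:69946630-69946651 and chr11:69946425-69946443 on the minus strand, and both matched in 5 of the 8 annotated Slc2a4 transcripts. Both Glut7 primers lie in coding exon 3 of Slc2a7-201, at chr4:150152151-150152169 and chr4:150152264-150152284. None of the 6 primers matched a transcript of another gene.

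Slc2a3 encodes GLUT3, a high-affinity glucose transporter known from neurons, platelets and leukocytes. The gene (ENSMUSG00000003153.10) lies on chromosome 6 from 122727809 to 122801640 on the minus strand. Its counts were 1581, 860 and 1516 at 30 °C and 1104 and 722 at 4 °C, or 84.1, 70.6 and 66.2 CPM against 54.9 and 43.3. The tumours at 4 °C were both below the lowest tumour at 30 °C. In CPM without the TMM correction the groups overlapped, since 30 °C replicate 2, where the acinar genes take up counts, stood at 52.0 and 4 °C replicate 1 at 59.3. When acinar genes were left out of the totals, 30 °C replicate 2 stood at 72.3 CPM and the groups were apart again. With TMM scaling the means were 73.7 ± 9.35 CPM (SD, n = 3) and 49.1 ± 8.24 (SD, n = 2). The log2 fold change was −0.59 (standard error 0.20, 95% interval −1.07 to −0.10), with an unadjusted p of 0.0249 and an adjusted p of 0.702 from edgeR. Without 30 °C replicate 2 it was −0.63 (unadjusted p = 0.0528), and without 30 °C replicate 1 it was −0.48 (unadjusted p = 0.0741, both from edgeR). It was −0.66 without 30 °C replicate 3, −0.77 without 4 °C replicate 1 and −0.44 without 4 °C replicate 2.

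Slc2a4 encodes GLUT4, the transporter that insulin brings to the surface of muscle and fat cells. The gene (ENSMUSG00000018566.14) lies on chromosome 11 from 69942539 to 69948188 on the minus strand. It had 236, 205 and 153 counts at 30 °C and 87 and 127 at 4 °C, which corresponds to 12.6, 16.8 and 6.68 CPM against 4.33 and 7.61. The groups overlapped, because 30 °C replicate 3 lay between both tumours at 4 °C. The highest value was that of 30 °C replicate 2. The mean was 12.03 ± 5.10 CPM (SD, n = 3) at 30 °C, compared with 5.97 ± 2.32 (SD, n = 2) at 4 °C. Among the 7 tested members Slc2a4 had the log2 fold change farthest from 0, at −1.01, but also a wide error (standard error 0.46, 95% interval −2.12 to 0.11, edgeR unadjusted p = 0.0696, adjusted p = 0.756). Leaving out 30 °C replicate 2 brought it to −0.70, and leaving out 4 °C replicate 1 to −0.65 (unadjusted p = 0.188 and 0.304).

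The tissues best known for GLUT4 left few counts. Of 13 skeletal muscle markers, 3 were above the floor in every library and Myh4 had 0 counts in all 5, and the list summed to between 14.4 and 15.9 CPM at 30 °C and to 9.90 and 16.8 at 4 °C. Of 8 adipocyte markers, 2 were above the floor in every library and Lep had 0 counts throughout. Their sum was 4.47, 30.8 and 6.46 CPM at 30 °C and 12.2 and 9.71 at 4 °C, and the highest value was again that of 30 °C replicate 2. The 14 neutrophil markers, all above the floor in every library, summed to 14285, 9291 and 3251 CPM at 30 °C and to 2701 and 4406 at 4 °C. Neutrophil markers and Slc2a4 thus shared the 2 highest libraries (30 °C replicates 1 and 2) and the lowest (4 °C replicate 1). This was not particular to neutrophils. Proliferation genes, with sums of 1948, 2457 and 1772 CPM at 30 °C and 1122 and 1226 at 4 °C, shared the same libraries. So did the genes of hexose phosphorylation (570.5, 456.2 and 375.3 CPM against 328.9 and 355.1). The part of any cell type in the Slc2a4 values was not tested.

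The ratio of the counts of a pair of genes in the same library does not depend on depth or scaling, and it was computed for the 21 pairs of tested members. The counts of Slc2a1 divided by those of Slc2a3 gave 0.532, 0.387 and 0.569 at 30 °C and 0.958 and 1.31 at 4 °C. Slc2a1 over Slc2a4 gave 3.56, 1.62 and 5.63 at 30 °C against 12.2 and 7.46 at 4 °C. Both ratios were higher in each tumour at 4 °C than in any at 30 °C. The same held for Slc2a1 against each of the other members, which makes 6 of 6 pairs, although these pairs all share the Slc2a1 values. In all, the groups did not overlap for 8 of the 21 pairs (38.1%). The remaining pairs were Slc2a3 over Slc2a9 and Slc2a4 over Slc2a6, both lower at 4 °C. Over all pairs of tested genes the groups did not overlap for 23.2%. This share was read from differences of log2 CPM with a prior count of 2, which depart from ratios of counts where counts are low. The 8 pairs were the same on both scales.

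**Figure D3:**
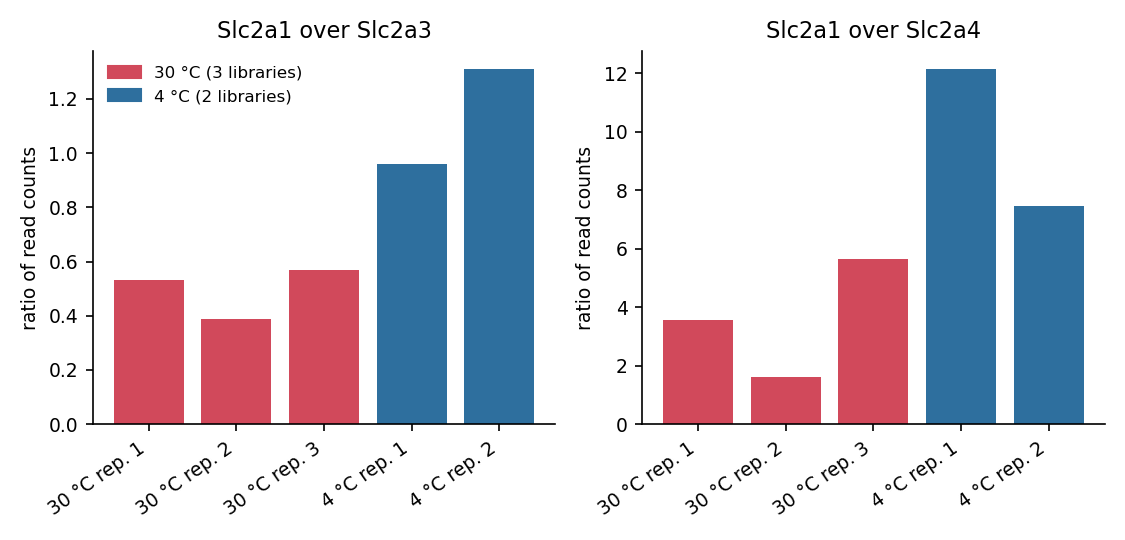
Ratio of the read counts of Slc2a1 to those of Slc2a3 (left) and of Slc2a4 (right), 1 bar per library, with both axes starting at 0. In both plots the 2 libraries at 4 °C exceed the 3 libraries at 30 °C, with the lowest ratios (0.387 and 1.62) in 30 °C replicate 2.

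Slc2a6 encodes GLUT6, a transporter of intracellular membranes that is found in macrophages and other leukocytes, and lies on chromosome 2 from 27021363 to 27027998. Its values were 20.1, 7.72 and 10.9 CPM at 30 °C and 10.5 and 14.9 at 4 °C. The difference between the means, 12.9 ± 6.41 (SD, n = 3) and 12.7 ± 3.05 (SD, n = 2), was far smaller than the spread at 30 °C (log2 fold change −0.03, 95% interval −1.05 to 1.00, edgeR adjusted p = 0.991). Its sign rested on single libraries, with 0.44 without 30 °C replicate 1, 0.20 without 4 °C replicate 1 and −0.30 without 30 °C replicate 2. Slc2a6 was highest in 30 °C replicate 1 and 4 °C replicate 2 and lowest in 30 °C replicate 2. The 11 macrophage markers, all above the floor in every library, had their highest sums in the same 2 libraries (3178 and 2735 CPM) and their lowest in the same one (1593). Their part in the Slc2a6 values was not tested.

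Slc2a8 and Slc2a9 had the smallest spread over the 5 libraries among the tested members, with standard deviations of log2 CPM of 0.21 and 0.16, but the size of their log2 fold change moved with single libraries. Slc2a8, the gene of the intracellular sugar transporter GLUT8 on chromosome 2 from 32972990 to 32982083, had 10.3, 10.4 and 9.04 CPM at 30 °C and 7.26 and 9.59 at 4 °C. The groups overlapped through 4 °C replicate 2 (log2 fold change −0.23, 95% interval −0.83 to 0.36, edgeR adjusted p = 0.882), and it was −0.05 without 4 °C replicate 1 and −0.46 without 4 °C replicate 2. Slc2a9, the gene of the urate carrier GLUT9 on chromosome 5 from 38349273 to 38503143, had 8.41, 7.64 and 8.91 CPM at 30 °C and 7.91 and 6.65 at 4 °C. Here 4 °C replicate 1 lay inside the range at 30 °C (log2 fold change −0.19, 95% interval −0.78 to 0.39, adjusted p = 0.902), and it was −0.32 without 4 °C replicate 1 and −0.09 without 4 °C replicate 2. Slc2a10, the gene of GLUT10 on chromosome 2 from 165503787 to 165519917, had only 16, 16 and 19 counts at 30 °C and 18 and 10 at 4 °C. At this depth its interval was wide (log2 fold change −0.39, 95% interval −1.54 to 0.76, adjusted p = 0.897), and it was −0.17 without 30 °C replicate 2, −0.72 without 4 °C replicate 1 and −0.16 without 4 °C replicate 2.

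**Figure D4:**
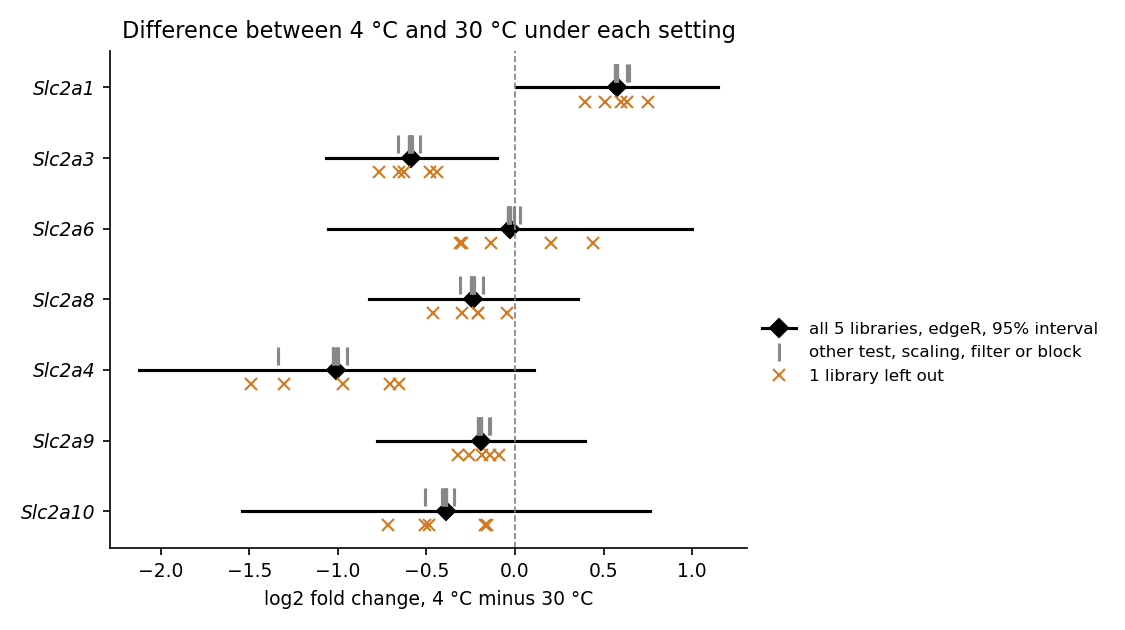
Log2 fold change between 4 °C and 30 °C for the 7 tested members, where a negative value means lower at 4 °C. Diamonds and lines give the edgeR fit on all 5 libraries with its 95% interval, grey ticks the other tests, scalings, filters and the replicate block, and crosses the fits with 1 library left out. All marks of Slc2a1 lie above 0 and all marks of Slc2a3 and Slc2a4 below it, whereas those of Slc2a6 fall on both sides.

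The other 3 members had too few counts to be tested. Slc2a2 encodes GLUT2, the transporter of hepatocytes and beta cells, on chromosome 3 from 28697903 to 28731359. It had 0, 3 and 1 counts at 30 °C and 0 and 2 at 4 °C, none above the floor. Its highest count, 3, was in 30 °C replicate 2, where the beta cell hormone gene Ins2 had 567 counts, against at most 1 in any other library. Slc2a5, the gene of the fructose transporter GLUT5 on chromosome 4 from 150119283 to 150144169, had 1 count in all 5 libraries together. Slc2a12, the gene of GLUT12 on chromosome 10 from 22645011 to 22704285, had 1, 4 and 1 counts at 30 °C and 1 and 2 at 4 °C. Slc2a12 shares 407 exon bases with Tbpl1 on the opposite strand, and since the strand setting of the counting is not given, single reads there cannot be assigned with certainty. A difference between the temperatures was not detectable for these 3 genes at this depth.

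Of the family genes outside the list, Slc2a7, which encodes GLUT7, was at 0 counts throughout, and at the depth of the shallowest library this leaves room for at most 0.185 CPM. Slc2a13, which encodes a transporter of myo-inositol, had 12, 13 and 43 counts at 30 °C and 36 and 16 at 4 °C (log2 fold change 0.20, standard error 0.58, edgeR adjusted p = 0.959).

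Genes that act beside the transporters were read from lists. None of their tested genes had an adjusted p under 0.05 (edgeR). Genes of the sodium-glucose cotransporter family, of which some take up glucose against its gradient, were scarce. Of 7 genes, 3 had 0 counts throughout and 2 were tested, namely Slc5a11 with 1.44, 0.739 and 1.27 CPM at 30 °C against 0.746 and 1.08 at 4 °C, and Slc5a2 with at most 12 counts in a library. Together they reached at most 1.97 CPM in a library.

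Hexose phosphorylation traps sugars inside the cell. Of its 8 genes 6 were tested, 4 with a log2 fold change below 0 and a median of −0.45, and 3 were without an overlap and lower at 4 °C, where 49.3% and 11.0% of all genes tested were. Hk1, the widespread hexokinase, had 239, 194 and 187 CPM at 30 °C and 152 and 153 at 4 °C (log2 fold change −0.44, standard error 0.18, unadjusted p = 0.0478, adjusted p = 0.731 from edgeR). Adpgk, an ADP-dependent glucokinase, had 151, 103 and 72.7 CPM against 64.6 and 64.0 (−0.76 on the log2 scale, adjusted p = 0.743). Hk2, the hexokinase of muscle and of many cancer cells, had 33.4, 30.4 and 26.2 CPM against 24.2 and 19.2 (−0.47, adjusted p = 0.754). In these 3 genes both tumours at 4 °C were below all tumours at 30 °C, as they were for Slc2a3.

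The genes for the movement and control of GLUT proteins were all 22 tested, 12 with a log2 fold change above 0 and 10 below, with a median of 0.05. Over all genes tested 49.3% were below 0. The groups did not overlap for 2 of the 22 that were higher at 4 °C and 3 that were lower, against 12.2% and 11.0% of all genes tested. Sort1, which encodes the sorting receptor sortilin of GLUT4 storage vesicles, had 66.6, 88.0 and 67.5 CPM at 30 °C and 46.6 and 42.9 at 4 °C (log2 fold change −0.72, standard error 0.20, unadjusted p = 0.00948, adjusted p = 0.689 from edgeR). Txnip, whose protein drives GLUT1 into the cell, had 282, 274 and 370 CPM against 458 and 355, so the groups overlapped (log2 fold change 0.40, adjusted p = 0.791). Stx4a, which encodes a syntaxin of the plasma membrane at which GLUT4 vesicles fuse, had 48.3, 47.0 and 46.9 CPM against 51.0 and 68.4 (0.33, adjusted p = 0.794), without an overlap between the groups.

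Lactate leaves the cell through monocarboxylate transporters. All 5 tested genes of that list had a log2 fold change below 0 (median −0.26), as had 49.3% of all genes tested. The groups were apart only for Slc16a1, which was lower at 4 °C, as were 11.0% of all genes tested. Slc16a3 (MCT4) had 67.4, 26.8 and 27.7 CPM at 30 °C and 21.2 and 27.3 at 4 °C, so its difference came mainly from 30 °C replicate 1 (adjusted p = 0.811 from edgeR). Emb, which encodes a chaperone of these transporters, had 101, 67.0 and 52.3 CPM against 56.1 and 53.9 (adjusted p = 0.834). Slc16a1 (MCT1) had 169, 197 and 157 CPM against 153 in both tumours at 4 °C (adjusted p = 0.866).

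Summed markers of several cell types were apart between the temperatures as well. The 10 T cell markers, all above the floor in every library, summed to 335, 395 and 555 CPM at 30 °C and to 742 and 781 at 4 °C. The 13 B cell markers, also all above the floor, ranged from 13062 to 15303 CPM at 30 °C and stood at 18803 and 19004 at 4 °C. The 9 smooth muscle markers (200.0 to 273 CPM against 481 and 452) and the 9 markers of splenic stroma (243 to 401 against 497 and 505) were likewise higher at 4 °C in each tumour, as was Slc2a1. Of the splenic stroma markers 8 were above the floor in every library, and of the smooth muscle markers all 9 were. By contrast, the 10 proliferation genes summed to between 1772 and 2457 CPM at 30 °C and to 1122 and 1226 at 4 °C, below the lowest tumour at 30 °C, as Slc2a3 was. The part of these cell types in the Slc2a values was not tested.

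**Figure D5:**
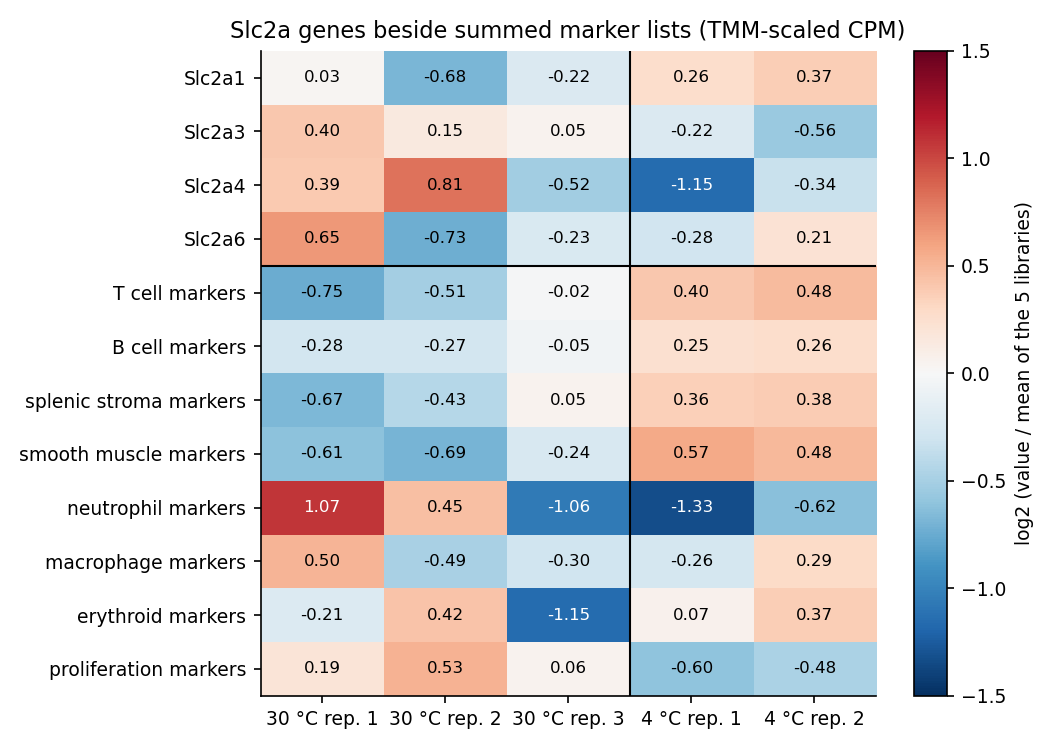
Log2 of the TMM-scaled CPM of each item over its mean in the 5 libraries, for 4 Slc2a genes (above the horizontal line) and 8 summed marker lists (below it), with the 3 libraries at 30 °C left and the 2 at 4 °C right of the vertical line. Both libraries at 4 °C are above the mean for Slc2a1 and the T cell, B cell, splenic stroma, smooth muscle and erythroid lists. At 30 °C, Slc2a1 is also above it in replicate 1 (0.031), the erythroid list in replicate 2 (0.422) and splenic stroma in replicate 3 (0.052). Slc2a3, Slc2a4, the neutrophil list and the proliferation list are below their mean in both libraries at 4 °C. Slc2a4 and the neutrophil list are also below it in 30 °C replicate 3 (−0.524 and −1.062).

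Genes with a course over the 5 libraries most like that of a member were found by the root mean square (RMS) difference of log2 CPM, each gene centred on its own mean. Nearest to Slc2a1 were Gm36266, Bcl2a1b and Mkks, at 0.057, 0.059 and 0.063, and 340 genes lay within 0.2. Nearest to Slc2a3 were Foxo3, Gzf1 and Svil, at 0.046 to 0.057, with 453 genes within 0.2. Slc2a4 had fewer such neighbours, with 20 genes within 0.2, and the nearest were Ly6a2, Ly6g (a surface marker of neutrophils) and Gm867, at 0.050, 0.123 and 0.138. Over 5 libraries many of 16132 genes come close to any course, so these distances are a description.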

How the data were processed

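RNA from 3 CRC tumours at 30 °C and 2 at 4 °C was analysed. The deposited values are whole-number raw counts per gene symbol and library. The methods of the study name featureCounts on Gencode vM19 as the counter, whereas the submitters' processing notes name fastp, HISAT, RSEM and GRCm38, so which tool made the counts is not settled. The strand setting and the treatment of multi-mapping reads are not given in the sources used here. Entries without a name (0.0101% to 0.0170% of counts) were left out, and of several entries with the same symbol that with the highest mean carried it. All columns of values were used.

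The filter (filterByExpr), the TMM scaling and the robust quasi-likelihood test without covariates came from edgeR 4.0.16 in R 4.3.3. A call needed an adjusted p (Benjamini-Hochberg) under 0.05, and a prior count of 2 entered log2 CPM. Alternatives were DESeq2 1.42.0, other scalings and filters, no robust estimation, no acinar genes, the replicate number as a block and each library left out. Procedures were tested on simulated data. Counting error and the spread between these tumours limit the precision. There are only 10 splits of 3 against 2, so an exact permutation test with its single-tail p doubled gives at least p = 0.2. That test was not run. Exon lengths and coordinates are from GENCODE M21.

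The members, lists and tests were chosen with earlier results of these data known. All 10 members are described, and of the other lists up to 3 tested genes with the smallest p, besides genes at 0 counts. Ins2 and the pairs shown as ratios were chosen after their values were seen.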

Additional observations from a re-analysis of the deposited data

How the results depend on the processing

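No member was called at an adjusted p under 0.05 under any of the 13 alternatives to the edgeR fit. The count of genes called, 0 with edgeR (1090 at an unadjusted p under 0.05), was 118 with the DESeq2 Wald test and 44 with the replicate block, and 0 under the other alternatives. The cause was not tested. Slc2a1 stayed above 0 (0.40 to 0.75 with 1 library left out, 0.56 to 0.64 otherwise), Slc2a3 below 0 (−0.77 to −0.44 and −0.66 to −0.54) and Slc2a4 below 0 (−1.49 to −0.65 and −1.34 to −0.95), with adjusted p from 0.277 to 1.00. Slc2a6 was reversed with upper-quartile scaling (0.026) and ranged from −0.31 to 0.44 over the fits with 1 library left out. Fits that leave 1 library at 4 °C assume that it varies like those at 30 °C. The members whose groups did not overlap, 2 with TMM scaling, were 1 in CPM without scaling, 3 without scaling and acinar genes, where Slc2a8 joined, and 2 with upper-quartile scaling (settings chosen after seeing the data). The libraries share only replicate numbers. Deviations from the group means of same-numbered libraries correlated at −0.26 for number 1 and 0.26 for number 2. The deviations of the 2 libraries at 4 °C mirror each other, so these values are not separate readings. For 30 °C replicate 3 and 4 °C replicate 1, of unlike number, the correlation was 0.62. With the replicate block Slc2a1, Slc2a3 and Slc2a4 had log2 fold changes of 0.64, −0.66 and −1.34. The length of the longest transcript moved the median level of Slc2a9 from 1.56 to 2.19 CPM per kb. Depth limits Slc2a2, Slc2a5, Slc2a10 and Slc2a12.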
